A study of Mus musculus with 18 samples.

Results

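The genes described here are the 5 members of the STAR family of RNA-binding proteins counted in this series, among them the 2 genes that were knocked out. They were chosen by their Ensembl gene IDs: Qk (Quaking, ENSMUSG00000062078.14), Khdrbs1 (Sam68, ENSMUSG00000028790.13), Khdrbs2 (ENSMUSG00000026058.11), Khdrbs3 (ENSMUSG00000022332.7) and Sf1 (ENSMUSG00000024949.17). All 5 were found among the 51826 features of every count file, and 4 of them were among the 13701 features with enough counts to be tested. Khdrbs2 was not.

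Ribosome-protected fragments, the stretches of mRNA covered by ribosomes and so spared by nuclease, were sequenced from mouse embryonic stem cells of the E14 line. There were 6 groups of 3 libraries: wild type cells (WT), a Quaking knockout line (Quaking KO) and a Sam68 knockout line (Sam68 KO), each as stem cells at day 0 and after 10 days of differentiation as embryoid bodies, which are aggregates that form many early cell types together. All 18 samples carry the same E14 background and were exposed for 15 minutes to cycloheximide, which freezes ribosomes on mRNA. The labels name 1 line per knockout; how each line was made, which part of the gene was altered and how many clones were used is not stated in the labels.

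STAR proteins (signal transduction and activation of RNA) bind RNA through a KH domain flanked by conserved regions and act on splicing, export, stability and translation of their targets. Quaking regulates alternative splicing and mRNA stability and is best known for its part in myelination and in heart and vessel development. Sam68 is a nuclear splicing regulator that is also a substrate of Src family kinases, Khdrbs2 and Khdrbs3 (SLM-1 and SLM-2) are its close relatives, known mainly from neurons and testis, and Sf1 binds the branch point of introns during the first steps of spliceosome assembly.

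Values are given in counts and in CPM, counts per 1e6 after scaling each library by TMM, a method that makes libraries comparable when a few genes take a large share of the reads. Percentages and folds between groups that are given with a p-value are model estimates, in which deeper libraries weigh more. They can differ from the ratio of the mean CPM. Total counts ran from 988210 to 10646768 per library. In 3 libraries, WT day 10 replicate 3 and Sam68 KO day 10 replicates 2 and 3, the 10 largest features held 60.2% to 70.4% of all counts, against 7.01% to 30.2% in the other 15; day 10 tests are given with all libraries and, beside them, without these 3. Without them 1 Sam68 KO day 10 library is left. Day 10 values of Sam68 KO in that setting rest on this library, which is assumed to vary like the other groups. WT day 10 replicate 3 was also the shallowest after scaling, where a floor of 3 counts stands for 7.05 CPM. The sample descriptions assign the libraries to 3 mixes, called pools here. WT and Quaking KO of day 0 shared pool 1, Sam68 KO of day 0 shared pool 2 with WT of day 10, and both knockouts of day 10 shared pool 3. A single pool holds both sides only for Quaking KO against WT at day 0 and for the knockouts against each other at day 10. In the other comparisons pool and group cannot be told apart, other than by a fit that assumes 1 day effect for all lines and 1 effect of each knockout for both days. Marker genes of stem cells and of embryoid body cell types were not examined, because no ID could be paired with a symbol (0 of 51826), so the cell types rest on the labels. A footprint count reflects how much mRNA there is and how often it is translated, and in embryoid bodies fewer cells that express a gene and less RNA per cell cannot be told apart.

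The genes lie apart in the genome. In RefSeq's annotation of GRCm38.p6, Qk spans chromosome 17 from 10206471 to 10319361 and Khdrbs1 spans chromosome 4 from 129702380 to 129743878; no other gene of that table overlaps either. Khdrbs3 (chromosome 15, 68928392 to 69101794) overlaps 1 long non-coding RNA gene, Gm31550. Sf1 (chromosome 19, 6363673 to 6378038) overlaps the long non-coding RNA gene Gm14966 at 1 end only, from 6363673 to 6363710. Khdrbs2 (chromosome 1, 32172602 to 32705224) overlaps 5 other genes. All 5 family members are protein-coding. Whether counting used strand is not given, so reads from the overlapping stretches cannot be told apart. Counts are per whole gene: they do not show where along the transcript a footprint lay, and levels are not compared between genes, since no coding length was used.

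**Figure D1:**
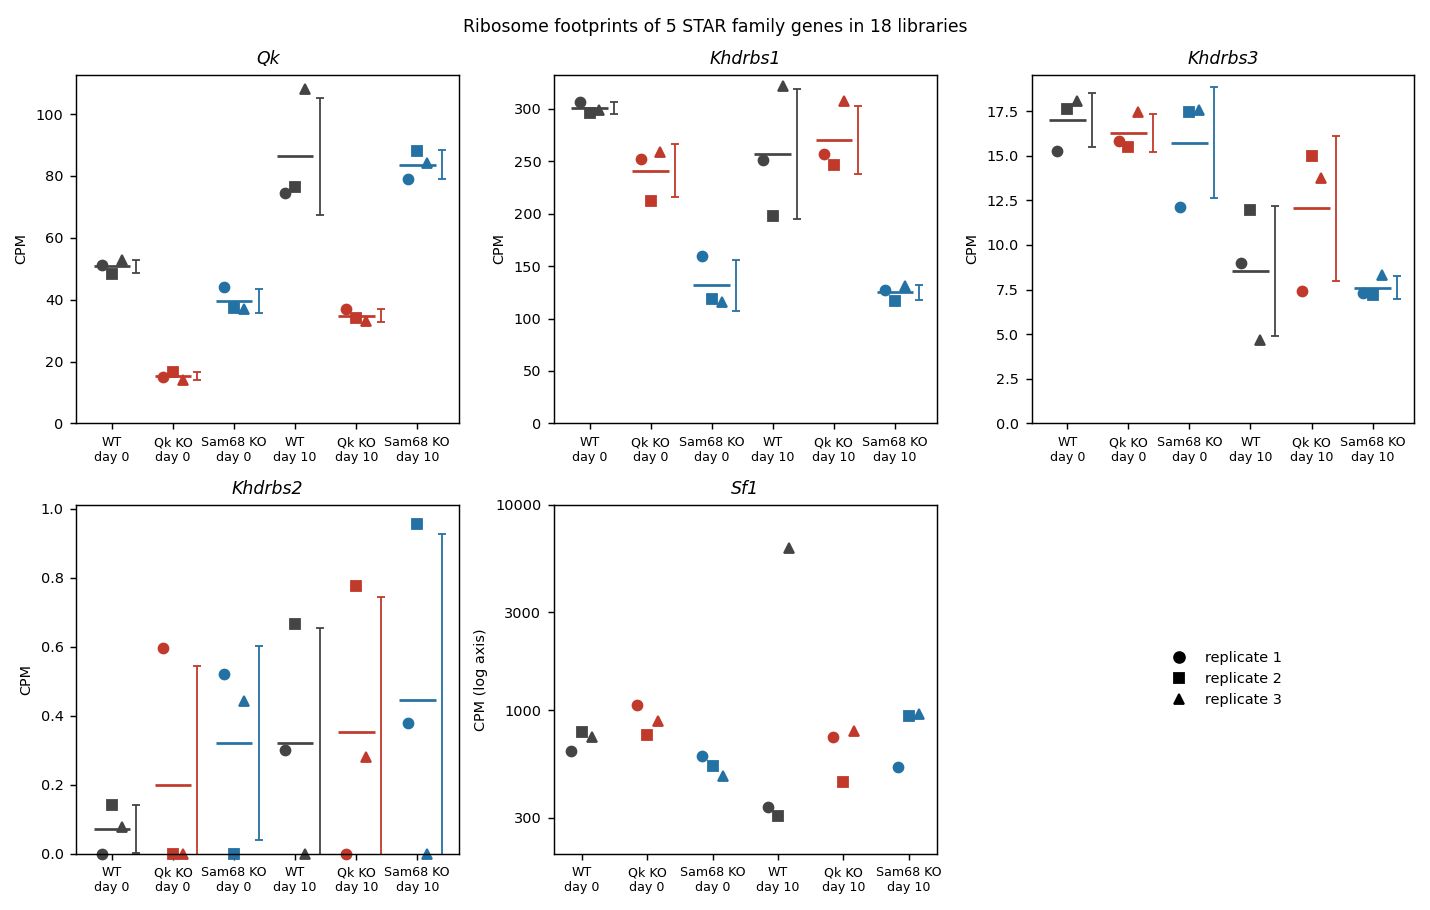
CPM of each STAR family gene (y axis, 1 panel per gene) in the 6 groups; points are libraries, horizontal bars are means and vertical bars SD over 3 libraries (not drawn for Sf1, which has a log axis). Qk was lowest in Quaking KO and Khdrbs1 lowest in Sam68 KO, and Sf1 stood at 6177 CPM in 1 WT day 10 library.

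Qk kept footprints in the line from which it was knocked out, at a level below WT on both days. At day 0 the 3 WT libraries had 352, 346 and 679 Qk counts (51.1, 48.3 and 52.7 CPM), and the 3 Quaking KO libraries had 50, 29 and 45 counts (14.9, 16.7 and 14.0 CPM). The groups did not overlap, and no Quaking KO library came near 0. Quaking KO cells held 29.6% of the WT level (95% interval 23.3% to 37.5%; log2 change -1.76 ± 0.17 SE by edgeR, adjusted p = 1.68e-06). Of the 13701 genes tested, 0.365% were lower in this comparison and 0 were higher (edgeR; 111 were higher at an unadjusted p below 0.05, and DESeq2 called 8). Qk had the smallest p-value of all, although 375 genes had a lower log2 fold change. This comparison lay within pool 1.

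At day 10 Qk was again lower in Quaking KO cells. WT libraries had 497, 345 and 46 counts (74.5, 76.4 and 108 CPM), and Quaking KO libraries had 40, 132 and 118 counts (37.1, 34.1 and 33.1 CPM). After TMM scaling the groups did not overlap, and the highest WT value came from the shallow replicate 3. With CPM taken on total counts instead, WT replicate 3 had 39.1, within the Quaking KO values of 40.5, 40.2 and 37.4. On that scale WT replicates 1 and 2 stayed above Quaking KO, at 76.3 and 78.1. The level in Quaking KO was 42.8% of WT (95% interval 34.0% to 54.0%; log2 change -1.22 ± 0.16 SE by edgeR, adjusted p = 2.29e-06), in a comparison in which 12.8% of genes were lower. Without WT day 10 replicate 3 the log2 fold change was -1.16 (edgeR adjusted p = 2.16e-06), and without all 3 libraries dominated by few features it was -1.15 (4.33e-06). The share kept at day 10 was 145% of the share kept at day 0 (95% interval 104% to 202%), a difference that did not pass the test over all genes (edgeR interaction, log2 0.53, adjusted p = 0.212; 0.65 and 0.0755 without the 3 dominated libraries).

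Qk rose with differentiation in all 3 lines, the knockout included. WT went from 50.7 ± 2.22 CPM (SD, n = 3) to 86.3 ± 18.8, Quaking KO from 15.2 ± 1.33 to 34.8 ± 2.09, and Sam68 KO from 39.6 ± 3.98 to 83.7 ± 4.55. In each line every day 10 library exceeded every day 0 library after TMM scaling. With CPM taken on total counts this held in Quaking KO only. On that scale WT day 10 replicate 3 (39.1) lay below all WT day 0 libraries (58.9 to 65.0). Sam68 KO day 10 replicate 3 (41.4) lay below all Sam68 KO day 0 libraries (46.3 to 55.1), and replicate 2 (46.5) lay among them. The rise was 1.58-fold in WT (log2 change 0.66 ± 0.15 SE by edgeR, adjusted p = 0.000266), 2.28-fold in Quaking KO (1.19 ± 0.18 SE by edgeR, adjusted p = 2.07e-06) and 2.11-fold in Sam68 KO (1.08 ± 0.15 SE by edgeR, adjusted p = 9.72e-07). Between 34.7% and 34.9% of all genes tested were called higher at day 10 in these 3 comparisons, so a rise by itself was common. Without the 3 dominated libraries the values were 0.56 in WT (edgeR adjusted p = 0.00212) and 1.02 in Sam68 KO, where 1 day 10 library is left. The WT call was lost when genes with low counts were kept in the fit (0.46, edgeR adjusted p = 0.0760), and no line was called in an additive fit of genotype, day and pool, which gives 1 day effect for all lines (0.54, edgeR adjusted p = 0.0890).

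Qk did not pass the test in Sam68 KO on either day. At day 0 the Sam68 KO libraries measured 44.2, 37.4 and 37.1 CPM of Qk, all below the lowest WT value of 48.3, yet the difference did not pass the test over all genes (77.7% of WT, 95% interval 62.9% to 95.8%; edgeR adjusted p = 0.364). At day 10 they measured 78.9, 87.9 and 84.3 CPM, above WT replicates 1 and 2 (74.5 and 76.4) and below replicate 3 (108). The level was 104% of WT (95% interval 83.1% to 130%; log2 0.05, edgeR adjusted p = 1.00). By mean CPM, Sam68 KO was slightly below WT instead (83.7 against 86.3). Without WT day 10 replicate 3 the log2 change was 0.12 (edgeR adjusted p = 0.881), and without all 3 dominated libraries 0.07 (1.00). In order of mean level after TMM scaling, WT and Sam68 KO at day 10 stood highest and overlapped. WT at day 0 came next. Sam68 KO at day 0 and Quaking KO at day 10 followed and overlapped. Quaking KO at day 0 was lowest, clear of all others.

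**Figure D2:**
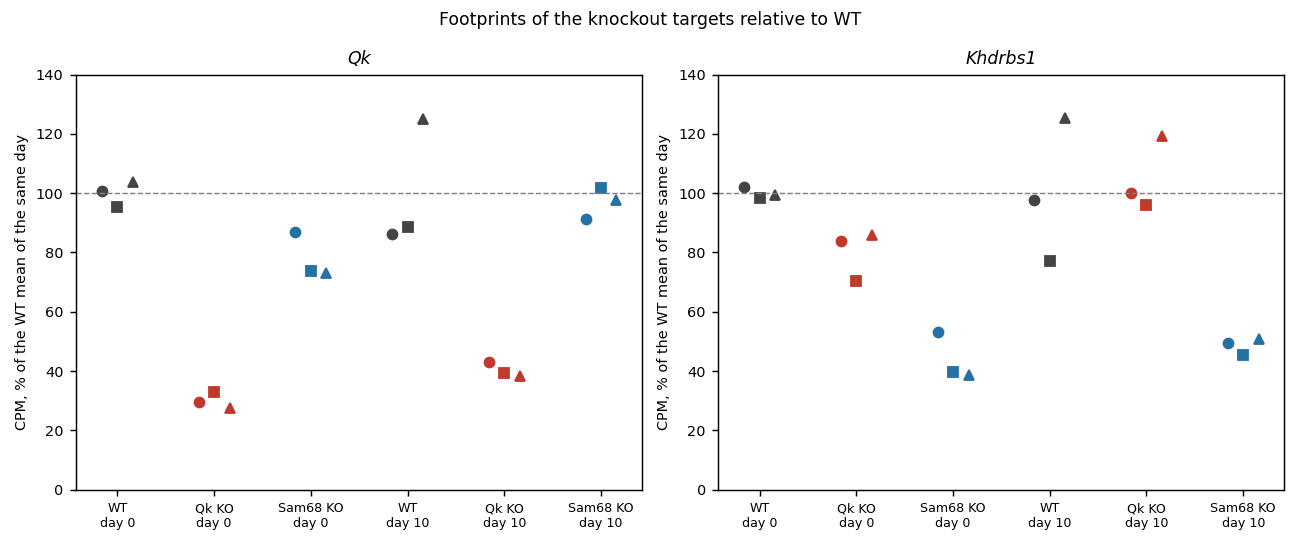
CPM of Qk and Khdrbs1 in each library as a percentage of the mean of the 3 WT libraries of the same day (y axis, from 0); the dashed line marks 100%. Quaking KO libraries held 27.7% to 43.0% of WT Qk, and Sam68 KO libraries held 38.5% to 53.1% of WT Khdrbs1.

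Khdrbs1, the gene that encodes Sam68, also kept footprints in its knockout line. At day 0 the WT libraries had 2111, 2120 and 3850 Khdrbs1 counts (307, 296 and 299 CPM), and the Sam68 KO libraries had 922, 1186 and 784 (160, 119 and 116 CPM). The WT values lay close together (SD 5.45) and the groups did not overlap. Sam68 KO cells held 43.7% of the WT level (95% interval 35.0% to 54.6%; log2 change -1.19 ± 0.16 SE by edgeR, adjusted p = 7.16e-05), where 0.642% of genes were lower and 0.62% higher. By p-value Khdrbs1 ranked 12 among the 13701 genes in this comparison.

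At day 10 Khdrbs1 measured 251, 198 and 322 CPM in WT and 128, 117 and 131 CPM in Sam68 KO. After TMM scaling every knockout library was below every WT library, and the spread was wider in WT (SD 62.1) than in Sam68 KO (SD 7.09). With CPM taken on total counts instead, WT replicate 3 had 116.5, below Sam68 KO replicate 1 at 128.6. It stayed above Sam68 KO replicates 2 and 3, at 61.9 and 64.2. The level was 49.7% of WT (95% interval 39.5% to 62.5%; log2 change -1.01 ± 0.16 SE by edgeR, adjusted p = 0.00264). In this comparison 0.102% of genes were lower and 0.073% higher, and Khdrbs1 ranked 7 by p-value among all genes tested. The call depended on the libraries in the fit. It was lost when only these 6 libraries were fitted (log2 fold change -1.03, edgeR adjusted p = 0.0821) and without the 3 dominated libraries (-0.82, edgeR adjusted p = 0.166), which leaves 1 Sam68 KO library, assumed to vary like the other groups. Without WT day 10 replicate 3 alone it held (-0.87, edgeR adjusted p = 0.00402). The share of Khdrbs1 kept did not pass a test of a difference between the days (share at day 10 as a percentage of that at day 0: 114%, 95% interval 82.9% to 156%; edgeR interaction, log2 0.19, adjusted p = 0.915; 0.41 and 0.889 without the 3 dominated libraries).

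Both comparisons of Sam68 KO with WT cross pools, so the comparison of the 2 knockouts at day 10, all in pool 3, bears on the targets within 1 pool. There Khdrbs1 in Sam68 KO was 46.2% of its level in Quaking KO (257, 247 and 307 CPM in Quaking KO; log2 change -1.11 ± 0.16 SE by edgeR, adjusted p = 9.64e-06), and Qk in Sam68 KO was 2.42-fold its level in Quaking KO (log2 change 1.28 ± 0.16 SE by edgeR, adjusted p = 1.51e-06). In this comparison 10.6% of genes were lower and 13% higher in Sam68 KO, 23.7% in all. Without the 3 dominated libraries, which leaves 1 Sam68 KO library, the values were -1.07 for Khdrbs1 and 1.21 for Qk. At day 0, across pools, Khdrbs1 was 54.5% of the Quaking KO level (edgeR adjusted p = 0.00127) and Qk 2.63-fold (1.08e-05), where 0.766% of genes were lower and 2.55% higher, 3.31% in all.

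No change of Khdrbs1 was called with Quaking loss, and a change between the days was called only under some settings in WT. In Quaking KO at day 0 it measured 252, 212 and 258 CPM, below all 3 WT libraries, but the difference did not pass the test (80.3% of WT, 95% interval 64.3% to 100.3%; edgeR adjusted p = 0.727). At day 10 Quaking KO overlapped WT (108% of WT, 95% interval 85.9% to 135%; log2 0.11, edgeR adjusted p = 0.725; 0.25 and 0.243 without the 3 dominated libraries). Between the days the log2 fold change was -0.26 in WT (edgeR adjusted p = 0.170), 0.17 in Quaking KO (0.360) and -0.07 in Sam68 KO (0.699; -0.02 and 0.929 without the dominated libraries). In WT Khdrbs1 was called lower at day 10 without WT day 10 replicate 3 (log2 fold change -0.52, edgeR adjusted p = 0.00424) and without all 3 dominated libraries (-0.43, 0.0146). It was also called lower with all libraries when low-count genes were kept in the fit (-0.50, edgeR adjusted p = 0.0384). In order of mean level after TMM scaling, the 4 groups with an intact Khdrbs1 gene each overlapped their neighbour. They ran from 301 ± 5.45 CPM in WT day 0 to 241 ± 25.3 in Quaking KO day 0. The 2 Sam68 KO groups stood below them at 132 ± 24.4 and 125 ± 7.09.

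**Figure D3:**
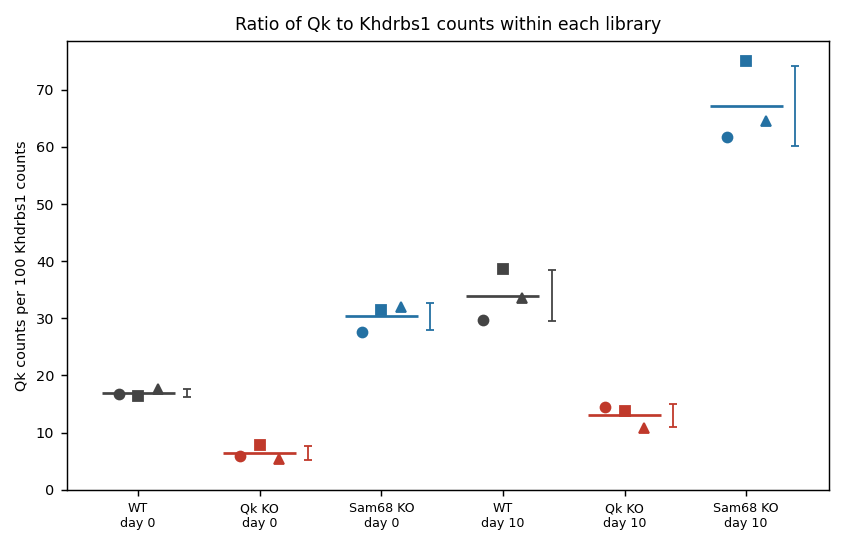
Qk counts per 100 Khdrbs1 counts (y axis, from 0) in each library; points are libraries, horizontal bars are means and vertical bars SD over 3 libraries. Within each day the Quaking KO libraries were lowest and the Sam68 KO libraries highest, with no overlap between the lines.

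The ratio of the 2 targets within a library needs no scaling between libraries, so it is not affected by features that dominate a library. For every 100 Khdrbs1 counts there were 16.7, 16.3 and 17.6 Qk counts in the WT day 0 libraries, 5.91, 7.86 and 5.43 in Quaking KO and 27.7, 31.5 and 32.0 in Sam68 KO. At day 10 there were 29.6, 38.6 and 33.6 in WT, 14.4, 13.8 and 10.8 in Quaking KO, and 61.8, 75.1 and 64.5 in Sam68 KO. The 3 lines did not overlap on either day, and WT day 10 replicate 3 lay between the other WT libraries. The mean log2 ratio was higher at day 10 by 1.00 in WT, 1.03 in Quaking KO and 1.14 in Sam68 KO (1.03 without the 2 dominated Sam68 KO libraries). With 3 libraries a group the exact two-sided permutation test cannot go below p = 0.10, which each of the 9 comparisons of groups reached (adjusted p = 0.10 over the 9).

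No rise of Khdrbs3, a close relative of Khdrbs1, was called where Sam68 was lost. Khdrbs3 measured 15.3, 17.6 and 18.1 CPM in WT and 12.1, 17.5 and 17.6 in Sam68 KO at day 0, and the groups overlapped (93.0% of WT, 95% interval 67.2% to 129%; edgeR adjusted p = 0.964). At day 10 it measured 9.0, 12.0 and 4.70 CPM in WT and 7.30, 7.17 and 8.33 in Sam68 KO (74.6% of WT, 95% interval 49.0% to 114%; log2 -0.42, edgeR adjusted p = 0.919; -0.50 and 1.00 without the 3 dominated libraries). The lowest WT value rests on 2 counts, which is under the floor of 3. In Quaking KO Khdrbs3 was at 95.9% of WT at day 0 (95% interval 67.9% to 135%; edgeR adjusted p = 1.00) and 132% at day 10 (88.7% to 195%; 0.338). Without the 3 dominated libraries the latter was a log2 change of 0.33 (edgeR adjusted p = 0.488). These intervals leave room for changes of some size in either direction.

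Khdrbs3 fell with differentiation in 2 of the 3 lines. In WT it went from 17.0 ± 1.52 to 8.55 ± 3.65 CPM (log2 change -0.78 ± 0.26 SE by edgeR, adjusted p = 0.00915), and in Sam68 KO from 15.7 ± 3.12 to 7.60 ± 0.640 (-1.10 ± 0.27 SE by edgeR, adjusted p = 0.00107). In both of these lines, and in Quaking KO, no day 10 library reached a day 0 library after TMM scaling. With CPM taken on total counts this held in WT and Sam68 KO. In Quaking KO day 10 replicate 2 (17.68) then just passed day 0 replicate 1 (17.55). Quaking KO went from 16.3 ± 1.06 to 12.0 ± 4.05 CPM, with day 10 values of 7.42, 15.0 and 13.7, and did not pass (-0.32 ± 0.26 SE by edgeR, adjusted p = 0.252). Of all genes 30.1% were lower at day 10 in WT, 29.4% in Quaking KO and 30.5% in Sam68 KO. The difference in slope between Quaking KO and WT did not pass either (edgeR interaction, log2 0.46, adjusted p = 0.520; 0.43 and 0.567 without the 3 dominated libraries). Without the 3 dominated libraries the fall was -0.73 in WT (edgeR adjusted p = 0.0195) and -1.10 in Sam68 KO, where 1 day 10 library is left.

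At day 10 Khdrbs3 was lower in Sam68 KO than in Quaking KO by a margin that just passed the threshold. The level was 56.6% of that in Quaking KO (95% interval 37.6% to 85.3%; log2 change -0.82 ± 0.29 SE by edgeR, adjusted p = 0.0489), and the groups overlapped, since Quaking KO replicate 1 (7.42 CPM, 8 counts) lay within the Sam68 KO range. The call was kept in 4 of 14 alternative settings, with adjusted p from 0.0127 to 0.189. It was lost without Quaking KO replicate 2 (edgeR adjusted p = 0.173) or 3 (0.122), without Sam68 KO replicate 1 (0.154), 2 (0.126) or 3 (0.0707), and without the 3 dominated libraries (0.143).

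Khdrbs2 was at the limit of detection in every group. No library had more than 3 counts and 7 of 18 had 0, so it was not tested. Summed over the 3 libraries of a group there were 2 counts in WT and in Quaking KO and 6 in Sam68 KO at day 0, and 5, 4 and 5 at day 10. These sums stand for 0.0743 CPM in WT day 0 (95% Poisson interval 0.00900 to 0.268) and 0.450 CPM in Sam68 KO day 10 (0.146 to 1.05), intervals that cover counting error only. The highest upper limit among the 6 groups was 1.20 CPM, in Quaking KO day 10. A change in Khdrbs2 within these low levels was not detectable at this depth.

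**Figure D4:**
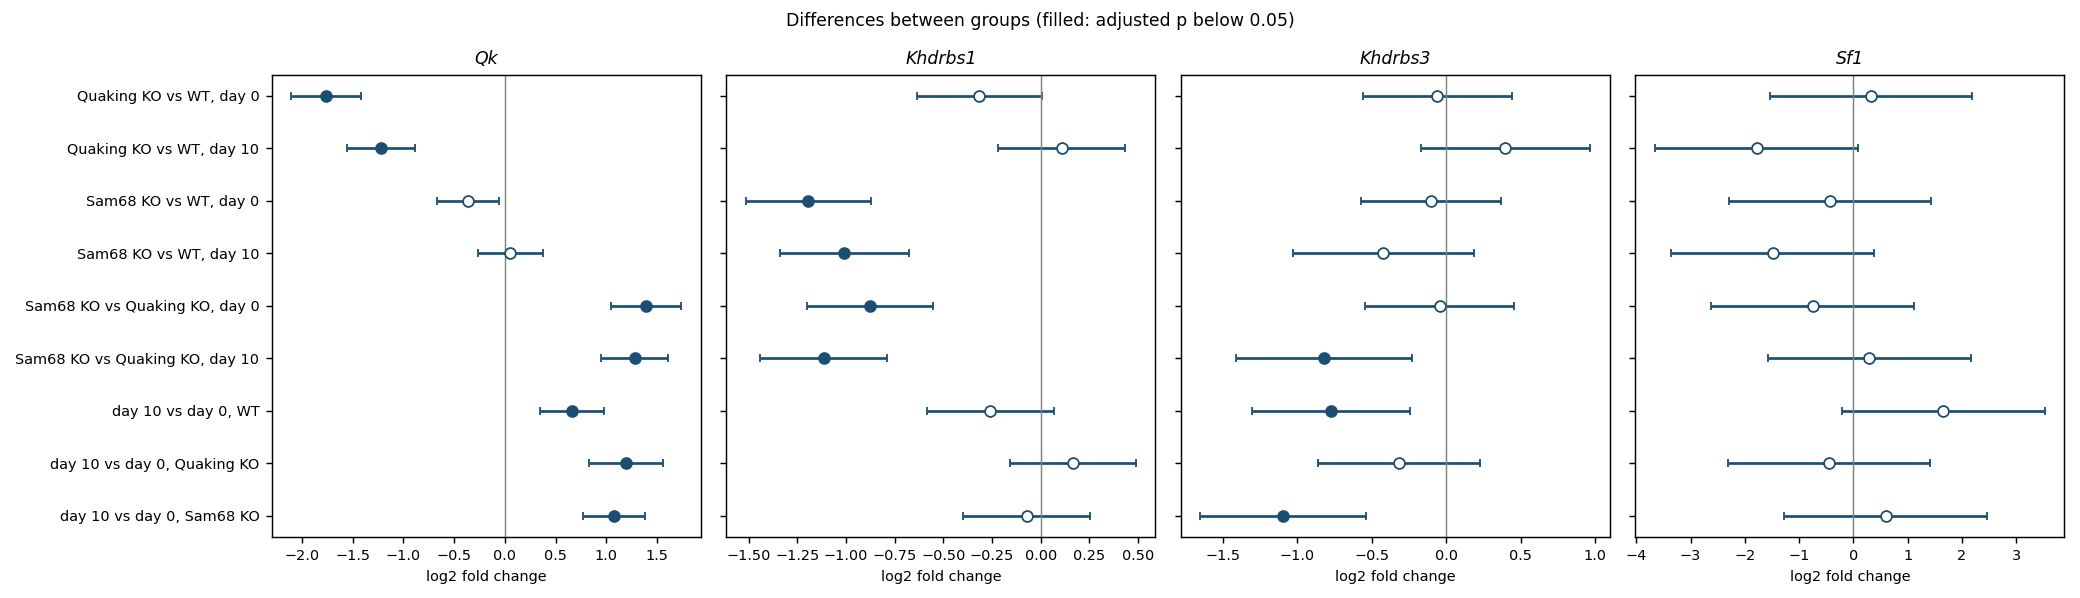
Log2 fold changes (x axis, scaled per panel) of the 4 tested genes in 9 comparisons between groups, with 95% intervals; filled points had an adjusted p below 0.05. Each knocked-out gene was lower in its own line on both days, and the intervals of Sf1 were the widest of the 4 genes.

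With all libraries Sf1 varied more between replicates than the other tested members, and 1 library stood far above the rest. It measured 632, 787 and 738 CPM in WT, 1065, 753 and 884 in Quaking KO and 596, 532 and 477 in Sam68 KO at day 0. At day 10 WT measured 336, 307 and 6177 CPM, Quaking KO 738, 448 and 791, and Sam68 KO 527, 942 and 954. The value of 6177 CPM (2629 counts) belonged to WT day 10 replicate 3. The 2 Sam68 KO libraries near 950 CPM were the other libraries dominated by few features. With CPM taken on total counts, WT day 10 measured 345, 314 and 2236. Sam68 KO day 10 then measured 532, 498 and 469, so its replicates 2 and 3 stood high only after TMM scaling. The part of the dominance in the Sf1 values was not tested. The biological coefficient of variation of Sf1 was 0.585, higher than that of 96.5% of genes, against 0.106 for Qk, 0.157 for Khdrbs1 and 0.141 for Khdrbs3.

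With all libraries no comparison of Sf1 passed the test, and the interval of each was wide. At day 0 it was 125% of WT in Quaking KO (95% interval 34.4% to 456%; edgeR adjusted p = 1.00) and 74.4% in Sam68 KO (20.5% to 271%; 0.960). The WT change between the days was a log2 fold change of 1.66 (SE 0.86, edgeR adjusted p = 0.115) with all libraries and -1.26 (edgeR adjusted p = 0.00105) without WT day 10 replicate 3, so that 1 library set its direction. Leaving out WT day 10 replicate 1 or 2 instead gave 2.02 (edgeR adjusted p = 0.0420) and 2.17 (0.0298). Quaking KO against WT at day 10 likewise went from -1.78 (SE 0.86, edgeR adjusted p = 0.171) to 1.01 (0.0144) without that library, and to 1.02 (0.00206) without all 3 dominated libraries. Sam68 KO against WT at day 10 went from -1.49 (edgeR adjusted p = 0.861) to 1.30 (0.0682) and 0.71 (0.926). The 2 remaining WT day 10 libraries had the lowest Sf1 levels of all 18.

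Sf1 was also called between other groups when the spread was estimated without that library. At day 0 all 3 Sam68 KO libraries were below all 3 Quaking KO libraries; the log2 fold change was -0.75 (edgeR adjusted p = 0.772) in the fit of all libraries, -0.85 (0.00127) when only these 6 were fitted and -0.74 (0.0309) without the 3 dominated libraries. These groups were sequenced in different pools. In Quaking KO the change between the days was -0.45 (edgeR adjusted p = 0.665) with all libraries and -0.44 (0.0475) without the dominated ones. In Sam68 KO it was 0.59 (edgeR adjusted p = 0.561) and 0.65 (0.0247) with only that line fitted. Without the dominated libraries, which leaves 1 Sam68 KO day 10 library, it was -0.00. The direction in Sam68 KO depended on the scaling. With CPM taken on total counts, Sf1 measured 743, 658 and 602 at day 0 and 532, 498 and 469 at day 10. On that scale every Sam68 KO day 10 library was below every day 0 library.

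**Figure D5:**
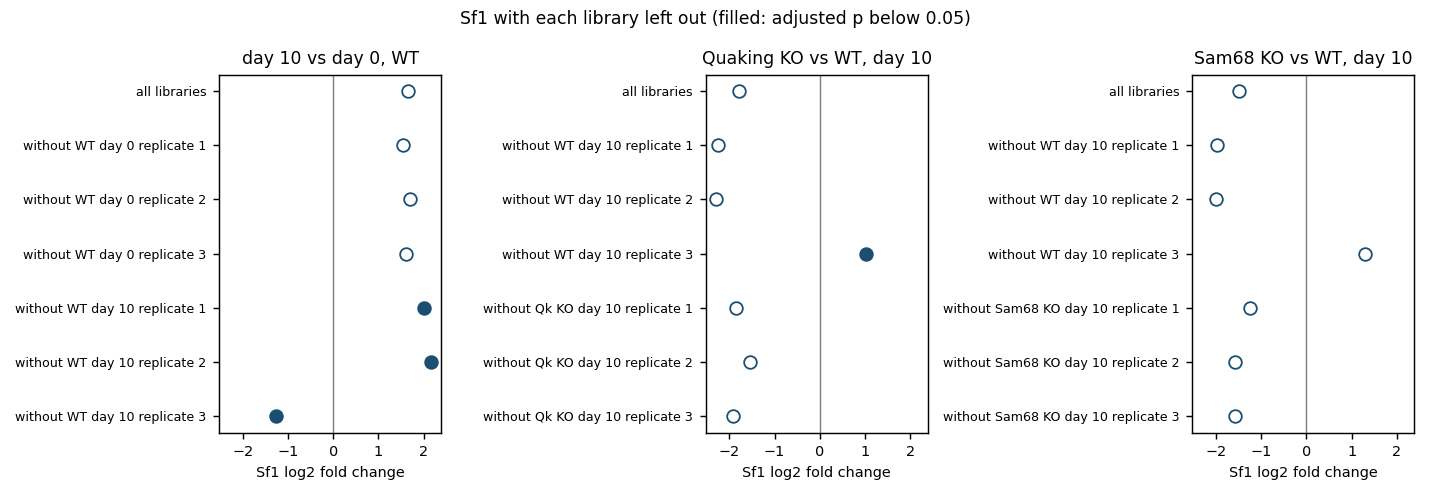
Log2 fold change of Sf1 (x axis) in 3 comparisons with all libraries and with each library of the compared groups left out in turn (rows); filled points had an edgeR adjusted p below 0.05. Only leaving out WT day 10 replicate 3 changed the sign, from 1.66 to -1.26 for WT between the days.

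Counted over the family, 1 of the 4 tested members was called in each comparison of a knockout with WT, and it was the knocked-out gene in all 4. The share of all genes called in either direction was 0.365% for Quaking KO and 1.26% for Sam68 KO at day 0, and 23.9% (11.1% higher) and 0.175% at day 10. The median log2 fold change of the 4 members was -0.19, -0.40, -0.56 and -0.72, beside -0.09, 0.02, -0.03 and -0.01 over all genes tested, listed as Quaking KO and Sam68 KO at day 0, then at day 10. The day 10 medians turned on the Sf1 values: without WT day 10 replicate 3 they were 0.28 for Quaking KO and -0.19 for Sam68 KO, and without the 3 dominated libraries 0.29 and -0.22. Without those 3, edgeR called Qk and Sf1 for Quaking KO and 0 members for Sam68 KO at day 10. Between the days 2 of 4 members were called in WT and in Sam68 KO (Qk higher and Khdrbs3 lower) and 1 in Quaking KO (Qk higher), where 65%, 65.3% and 64.1% of all genes were called. Of the members 0 were called in either test of whether a knockout's effect differed between the days, where 8.88% of genes were called for Quaking KO (5.12% higher, 3.76% lower) and 0.431% for Sam68 KO (0.131% higher, 0.299% lower). DESeq2 called 0 as well, though it gave no adjusted p for Sf1 in either test. At an unadjusted p below 0.05 edgeR had 1 (Qk, for Quaking KO) and 0.

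The features whose levels followed the targets most closely over the 18 libraries were found by Pearson correlation of log2 CPM, as a description without a test; the libraries share lines, days and pools. For Qk they were ENSMUSG00000030103.11 (r = 0.928) and ENSMUSG00000031530.6 (r = 0.928), which measured 12.3 CPM each in Quaking KO day 0 and 30.3 and 29.6 in WT day 0. For Khdrbs1 they were ENSMUSG00000032688.7 (r = 0.822) and ENSMUSG00000038523.10 (r = 0.773). The latter measured 7.96 CPM in WT and 0.289 in Sam68 KO at day 0, and 5.49 and 0.654 at day 10. It was picked for following Khdrbs1 in these libraries, and its Sam68 KO means lay below the 3-count floor of most of those libraries (0.301 to 0.519 CPM at day 0 and 0.377 to 2.78 CPM at day 10).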

How the data were processed

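Each of 18 ribosome profiling libraries has 1 deposited file of raw counts per gene, whole numbers for 51826 versioned Ensembl IDs. The submitters' processing notes name STAR 2.5.3a, Bowtie2, bcl2fastq 2.17.1.14 and the builds mm10 and GRCm38. Which program counted, with which annotation and strand setting, was not given in the sources used here. Fragments of 28 to 32 nt were selected, per the labels' protocols. No matched RNA-seq was used here, so no ratio of footprints to mRNA was formed.

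Titles gave the group and number of each library, and descriptions its pool. All libraries entered 1 edgeR 4.0.16 quasi-likelihood fit (R 4.3.3, robust, TMM, edgeR's default low-count filter) with 6 group means and 11 comparisons, adjusted by Benjamini-Hochberg over 13701 genes, two-sided, threshold 0.05. The p-values came from this quasi-likelihood fit. Log2 fold changes came from a separate edgeR fit of the same group means, with no prior count added. SE and 95% intervals came from the quasi-likelihood F statistic of a null 1 log2 unit to each side of the estimate. An estimate over its SE therefore need not match its p-value. DESeq2 1.42.0 and the other settings are in the closing section. All replicate pairs differed by more than sampling noise (lowest chi-square over its degrees of freedom, 4.80). The series calls its replicates biological. Members, lists and tests were chosen with earlier results of these data known. Named features are the 5 members and, for each knockout target, the 2 features with the highest correlation. Fixed lists of splicing regulators and cell type markers were not analysed here, since the reference table pairs 0 of the IDs with symbols.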

Additional observations from a re-analysis of the deposited data

How the results depend on the processing

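The alternatives were RLE and upper quartile scaling, no low-count filter, DESeq2, pool or the replicate number as a block, fitting the compared groups alone, thinning to 988210 counts, leaving out each library, and leaving out the 3 dominated libraries. The pool fit has 1 effect per knockout for both days and so is no check of either day alone; the ranges here leave it out. Qk in Quaking KO stayed called and lower in the other 14 at day 0 (log2 fold change -1.82 to -1.63) and at day 10 (-1.34 to -1.15), as did Khdrbs1 in Sam68 KO at day 0 (-1.36 to -1.11). At day 10 Khdrbs1 stayed called in 12 of 14; it was -1.03 with only the compared groups and -0.82 without the 3 dominated libraries, where 0 members were called in each case.

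Members called for Quaking KO vs WT at day 10 numbered 1 to 2 when single libraries were left out and 2 without the dominated libraries. For WT between the days they numbered 2 to 4, 4 without the dominated libraries and 1 with pool as a block. For Quaking KO between the days there were 2 without the dominated libraries, and for Sam68 KO 1 with pool as a block. The Sam68 KO by day interaction had 0 to 1 when single libraries were left out. Sf1 reversed, becoming called, without WT day 10 replicate 3 in Quaking KO vs WT at day 10 (-2.30 to 1.01 over the libraries left out), WT between the days (-1.26 to 2.17) and the Sam68 KO interaction (-1.57 to 1.73), and without the dominated libraries in the first 2 (1.02 and -1.18). In 31 other cases, counted with the pool fit included, a value changed sign with neither side called.

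Replicate numbers did not pair the libraries: in 0 of 9 comparisons did every same-numbered pair correlate above 0.1 (range -0.18 to 0.44), nor did every library match its own number best in any. With the replicate block Qk in Quaking KO was -1.76 at day 0 and -1.23 at day 10, Khdrbs1 in Sam68 KO -1.20 at day 0, and genes called for Quaking KO vs WT went from 50 to 55 at day 0 and from 3279 to 3068 at day 10. Of the members' calls, only Khdrbs3 in Sam68 KO vs Quaking KO at day 10 was lost under it (edgeR adjusted p = 0.0870). Depth limits Khdrbs2, and Khdrbs3 in WT day 10 replicate 3.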
